A study of Homo sapiens with 6 samples.

Results

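The genes described here are 49 genes of autophagy and the lysosome, followed in Y79 cells. Y79 is a long-used human line derived from retinoblastoma, with extra copies of MYCN and without functional RB1. They were chosen by name as genes that build the autophagosome, load its cargo or digest it in the lysosome, and all 49 are among the 17013 genes with values in the deposited table. Autophagy encloses cytoplasm, damaged organelles or protein aggregates in a double membrane and delivers them to the lysosome, where acid hydrolases break them down. The ULK kinase complex starts the process, the PIK3C3 lipid kinase marks the site, conjugation enzymes attach ATG8 proteins to the growing membrane, and receptors tie cargo to ATG8. TFEB and TFE3, transcription factors of the MiT family, are known for switching on lysosomal and autophagy genes when nutrients run short, and MYC proteins have been described as opposing them at shared promoters.

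The study asked which transcripts differ when MYCN is knocked down. Of 2 groups with 3 libraries each, the first was transduced with a short hairpin RNA (shRNA) against MYCN, the second with a control shRNA and recorded as MYCN wild-type. Cells of both groups were the same line, were harvested under the same conditions and form 1 batch. The replicates are described as biologically independent. How many hairpins were used is not stated, so these libraries measure no spread between hairpins.

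Library totals ran from 15490263 to 16078416 estimated counts, and the biological coefficient of variation between replicates was 3.34%. Levels are given as CPM, the counts scaled to library size with TMM factors, and "passed" means an adjusted p under 0.05 in the edgeR quasi-likelihood test across 12819 genes. MYCN itself measured 2413, 2284 and 2195 CPM in MYCN shRNA libraries, against 3046, 3128 and 2876 CPM in control shRNA libraries. It fell by 0.39 ± 0.043 on the log2 scale (SE, adjusted p = 8.03e-11). When cyclic loess took out trends of fold change with abundance, MYCN passed as higher instead (limma-voom, log2 fold change 0.10, adjusted p = 0.0247). Photoreceptor lineage markers summed to 1506 to 1550 CPM in MYCN shRNA libraries, against 1882 to 1985 CPM in control shRNA libraries. Of these 8 markers, OTX2 (log2 fold change -0.67), NEUROD1 (-0.74) and SYP (-0.13) fell, while CRX (0.36), RCVRN (1.55), ARR3 (1.80), RXRG (1.56) and THRB (2.45) rose. Macrophage and microglia markers, a cell type rich in lysosomal transcripts, summed to 0.952 to 1.59 CPM with MYCN shRNA and 1.31 to 1.53 CPM with control shRNA, and 4 of the 6 in the table never exceeded 5 counts. Endothelial markers, nearly all VWF, summed to 31.3 to 35.0 CPM with MYCN shRNA and 3.94 to 4.66 CPM with control shRNA. Stromal markers summed to 73.7 to 74.5 CPM with MYCN shRNA and 42.1 to 45.6 CPM with control shRNA. Most of the stromal sum was THY1, with means of 68.6 CPM with MYCN shRNA and 41.3 CPM with control shRNA. Pigment epithelium markers reached 10.4 to 12.0 CPM with MYCN shRNA and 3.07 to 3.15 CPM with control shRNA, and Müller glia markers 1172 to 1205 CPM with MYCN shRNA and 1150 to 1195 CPM with control shRNA. Within the glial sum, VIM rose by 0.68 (adjusted p = 3.11e-19) and GLUL fell by 0.35 (adjusted p = 5.25e-11). The part of these marker differences in the results was not tested. In bulk RNA, fewer cells with a transcript and less of it per cell cannot be told apart.

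Autophagy and lysosome genes moved in both directions with MYCN shRNA. Of the 49, 46 were tested, and 21 rose, 15 fell and 10 did not pass. Most of the transcriptome differed between these groups: 75.8% of all tested genes passed, 38.0% as higher and 37.9% as lower. The 36 that passed among 46 are therefore close to the share of genes at large. Libraries of the groups did not overlap for 37 of the 46, where 76.8% of all tested genes were separated. Their median log2 fold change was 0.12, beside 0.00 over all tested genes, and their median absolute log2 fold change was 0.28, beside 0.38. Only ULK1 passed with a change of at least 2-fold, as did 14.5% of all tested genes. Among the 6064 tested genes at the levels most of the 49 occupy, 21.1 to 117 CPM, the median absolute change was 0.32. With library size as the only scaling, the split was 28 higher and 11 lower, while 6597 of all 12819 tested genes were higher and 3348 lower. The median over all tested genes was then 0.19 on the log2 scale, beside 0.0046 with TMM.

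**Figure D1:**
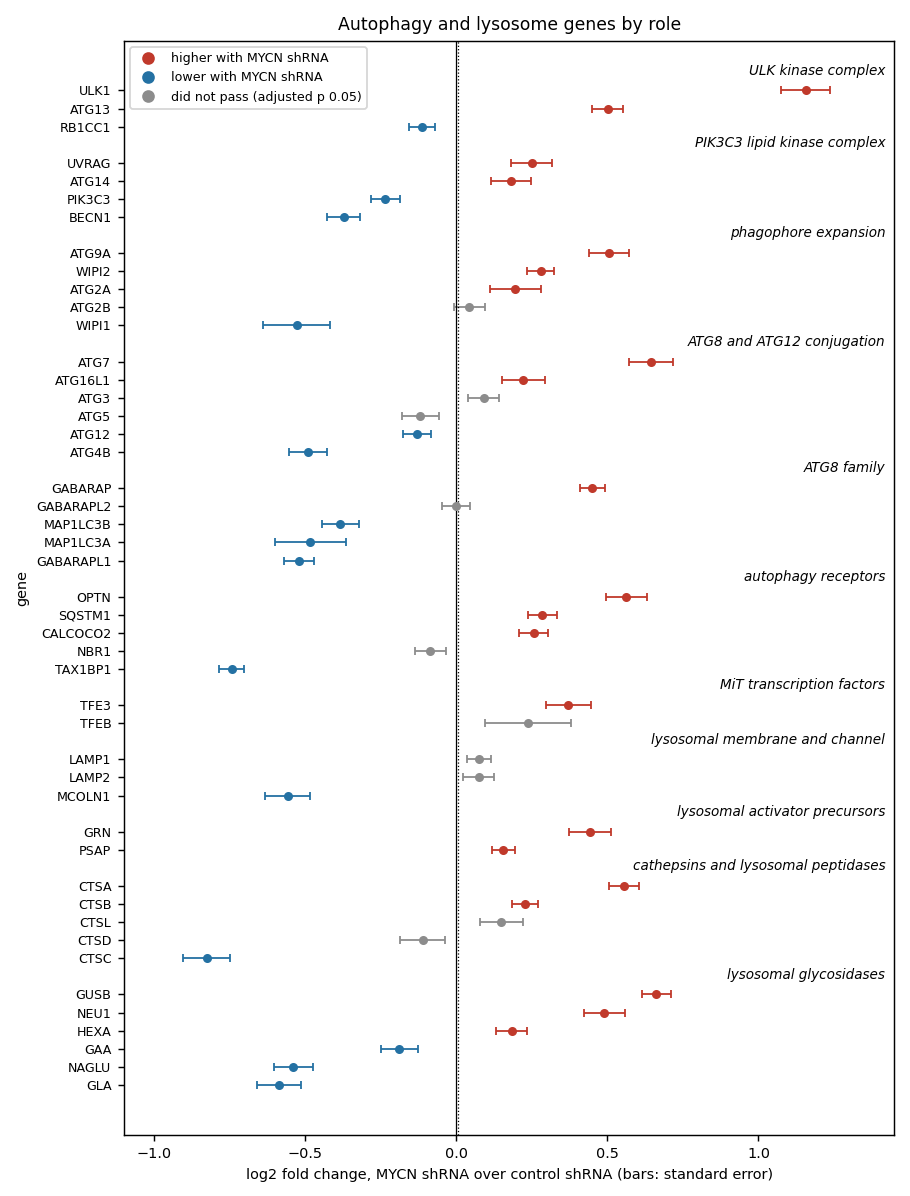
Log2 fold changes (MYCN shRNA over control shRNA) of the 46 tested autophagy and lysosome genes, grouped by role, with standard errors as bars; the solid line is 0 and the dotted line the median of all tested genes. ULK1 at 1.16 and CTSC at -0.83 are the ends of the range, and most roles hold genes on both sides of 0.

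The remaining 3 genes were too low to test. ULK2, the paralogue of ULK1, held 1 count over the MYCN shRNA libraries and 2 over the control shRNA libraries. CTSF, a cysteine cathepsin gene, held 3 counts with MYCN shRNA and 9 with control shRNA. CTSZ, a carboxypeptidase-type cathepsin gene, held 3 counts with MYCN shRNA and 5 with control shRNA. At this depth no difference in these genes could be tested, and their absence from the cells is not shown.

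The kinase that starts autophagy changed most. ULK1 (chromosome 12, 131894651 to 131923167, GRCh38) measured 58.9, 55.9 and 49.5 CPM in MYCN shRNA libraries, against 27.0, 26.0 and 20.6 CPM in control shRNA libraries. Its lowest library with MYCN shRNA lay well above its highest control, and it rose by 1.16 ± 0.082 on the log2 scale (adjusted p = 4.3e-11). ATG13, the adaptor that holds the kinase complex together, measured 75.6, 68.6 and 70.5 CPM with MYCN shRNA and 48.7, 52.1 and 51.0 CPM with control shRNA. The groups did not overlap, and ATG13 rose by 0.50 ± 0.053 (adjusted p = 2.35e-11). RB1CC1, which encodes the large scaffold FIP200 of the same complex, measured 102, 106 and 107 CPM with MYCN shRNA and 115, 110.4 and 116 CPM with control shRNA. It fell by 0.11 ± 0.043 (adjusted p = 0.0171), a small change whose sign turned with library size scaling (0.07). The call was also lost with upper quartile scaling (adjusted p = 0.105), with cyclic loess (adjusted p = 0.216) and without MYCN shRNA replicate 1 (adjusted p = 0.0964). Per kilobase of transcript, ULK1 made up 24.5%, 24.1% and 21.6% of the transcripts of ULK1, ULK2, ATG13 and RB1CC1 together with MYCN shRNA, against 14.7%, 14.2% and 11.4% with control shRNA. RB1CC1 made up 36.1% ± 1.9 with MYCN shRNA and 49.9% ± 1.6 with control shRNA (SD, n = 3 each). These shares are within a library and do not depend on the scaling between libraries.

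Of the 4 listed genes of the lipid kinase complex, 2 fell and 2 rose, and some of these calls depended on the processing. BECN1, the Beclin 1 scaffold of the complex, measured 38.4, 37.0 and 36.4 CPM in MYCN shRNA libraries, against 48.8, 47.8 and 48.3 CPM in control shRNA libraries. It fell by 0.37 ± 0.056 (adjusted p = 1.05e-07), with a gap between the groups far wider than the spread within either. The catalytic subunit gene PIK3C3 measured 68.1, 63.6 and 66.0 CPM with MYCN shRNA and 74.6, 77.0 and 81.0 CPM with control shRNA. It fell by 0.23 ± 0.049 (adjusted p = 4.86e-05), without overlap, but did not pass with library size scaling (log2 fold change -0.05). PIK3R4, a regulatory subunit gene of the complex, came from a wider list of 16 core autophagy genes, of which 9 rose and 1 fell. PIK3R4 was the gene that fell, by 0.36 ± 0.048 (adjusted p = 9.06e-09). UVRAG, which directs the complex to endosomes, measured 29.6, 28.3 and 27.7 CPM with MYCN shRNA and 24.5, 22.5 and 25.1 CPM with control shRNA. It rose by 0.25 ± 0.068 (adjusted p = 0.00116). ATG14, which directs the complex to the forming autophagosome, measured 32.3, 32.5 and 30.0 CPM with MYCN shRNA and 27.0, 29.5 and 27.2 CPM with control shRNA. The groups were separated only narrowly. ATG14 rose by 0.18 ± 0.065 (adjusted p = 0.0119), but it did not pass by DESeq2 (adjusted p = 0.0761), without MYCN shRNA replicate 2 (adjusted p = 0.0548) or without control shRNA replicate 1 (adjusted p = 0.0603). BECN1 shares 300 exon bases with the opposite-strand gene PSME3 (log2 fold change -0.81), and without a stated strand setting reads in that stretch cannot be assigned.

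Of 5 genes that expand the membrane, 3 rose, WIPI1 fell and ATG2B did not pass, and the call of 1 of the risen genes, ATG2A, was not stable. ATG9A, a lipid scramblase that travels on vesicles, measured 33.6, 32.6 and 31.5 CPM in MYCN shRNA libraries, against 24.6, 21.5 and 22.7 CPM in control shRNA libraries. It rose by 0.51 ± 0.068 (adjusted p = 9.85e-09), and no library of one group came near the other group. WIPI2, which reads the lipid mark and recruits ATG16L1, measured 99.5, 98.9 and 97.4 CPM with MYCN shRNA and 83.3, 79.4 and 81.0 CPM with control shRNA. It rose by 0.28 ± 0.045 (adjusted p = 5.37e-07). Its relative WIPI1 measured 8.51, 6.75 and 8.30 CPM with MYCN shRNA and 10.8, 12.3 and 10.8 CPM with control shRNA, and fell by 0.53 ± 0.111 (adjusted p = 4.53e-05). WIPI1 shares 828 exon bases with ARSG on the opposite strand, a gene at 11.6 CPM with MYCN shRNA and 12.3 CPM with control shRNA. Within a library, the log2 ratio of WIPI2 to WIPI1 averaged 3.57 ± 0.17 with MYCN shRNA and 2.79 ± 0.13 with control shRNA (SD, n = 3 each). The difference of 0.78 separated the groups, with an exact two-sided permutation p of 0.1, the smallest that 3 libraries against 3 can give (0.3 adjusted over the 6 paralogue pairs compared). ATG2A and ATG2B encode proteins that transfer lipid into the growing membrane. ATG2A rose by 0.20 ± 0.085 (adjusted p = 0.0369) with overlapping groups, and it did not pass with DESeq2 (adjusted p = 0.153), with cyclic loess (adjusted p = 0.0975) or without MYCN shRNA replicate 1 (log2 fold change 0.11), control shRNA replicate 2 (0.15) or control shRNA replicate 3 (0.14). ATG2B did not pass (log2 fold change 0.04 ± 0.052, adjusted p = 0.458).

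The conjugation enzymes were split evenly, with 2 risen, 2 fallen and 2 that did not pass. ATG7, the E1-like enzyme that activates both ATG8 proteins and ATG12, measured 27.3, 25.3 and 27.7 CPM in MYCN shRNA libraries, against 16.8, 17.2 and 17.4 CPM in control shRNA libraries. It rose by 0.64 ± 0.073 (adjusted p = 1.93e-10), second to ULK1 among autophagosome genes. ATG4B, the protease that trims ATG8 proteins before conjugation and frees them from membrane afterwards, measured 34.6, 32.1 and 31.4 CPM with MYCN shRNA and 49.7, 46.3 and 41.9 CPM with control shRNA. It fell by 0.49 ± 0.062 (adjusted p = 2.85e-09) in well separated groups. Both genes lie across from others on the opposite strand: ATG7 shares 1596 exon bases with VGLL4 (log2 fold change 0.31) and ATG4B shares 237 with THAP4 (-0.92). ATG16L1, which positions the conjugation machinery, measured 24.6, 25.2 and 27.5 CPM with MYCN shRNA and 20.7, 23.3 and 22.3 CPM with control shRNA. It rose by 0.22 ± 0.072 (adjusted p = 0.00546), but narrowly missed the threshold without MYCN shRNA replicate 3 (adjusted p = 0.0558) or control shRNA replicate 1 (adjusted p = 0.0533). ATG12, a ubiquitin-like protein joined to ATG5, measured 80.0, 79.3 and 84.3 CPM with MYCN shRNA and 87.6, 89.0 and 89.8 CPM with control shRNA. Its decrease of 0.13 ± 0.046 (adjusted p = 0.011) turned into a log2 fold change of 0.05 with library size scaling. It did not pass with upper quartile scaling (adjusted p = 0.0675), with cyclic loess (adjusted p = 0.0894) or without MYCN shRNA replicate 2 (adjusted p = 0.0633). ATG3, the E2-like enzyme (0.09 ± 0.051, adjusted p = 0.105), and ATG5 (-0.12 ± 0.061, adjusted p = 0.0741) did not pass. ATG3 passed as higher with upper quartile scaling (adjusted p = 0.0208), library size scaling (1.03e-05), cyclic loess (0.0205) and without control shRNA replicate 3 (0.0359). ATG5 passed as lower with no filter on low counts (adjusted p = 0.0397), with replicate number in the model (0.0413) and without MYCN shRNA replicate 3 (0.0193).

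The ATG8 proteins, which coat the autophagosome and bind receptors, were the list in which a gain of 1 gene stood against losses of 3. GABARAP (chromosome 17, 7240014 to 7242770) measured 179.8, 177 and 189 CPM in MYCN shRNA libraries, against 129.8, 131 and 139 CPM in control shRNA libraries. It rose by 0.45 ± 0.042 (adjusted p = 6.33e-13). Its paralogue GABARAPL1 went the other way, at 59.4, 57.7 and 62.3 CPM with MYCN shRNA and 84.1, 87.8 and 85.5 CPM with control shRNA. GABARAPL1 fell by 0.52 ± 0.049 (adjusted p = 9.25e-13). In neither gene did a library of one group reach the other group. MAP1LC3B, which encodes the LC3B protein used to mark autophagosomes in microscopy and blots, measured 35.5, 40.5 and 35.6 CPM with MYCN shRNA and 45.6, 50.7 and 49.4 CPM with control shRNA. It fell by 0.38 ± 0.060 (adjusted p = 3.05e-07). MAP1LC3A, the lowest of the 5 per kilobase of transcript, stood at 5.77 to 6.21 CPM with MYCN shRNA and 8.21 to 8.53 CPM with control shRNA, and fell by 0.48 ± 0.119 (adjusted p = 0.000365). GABARAPL2 did not pass, at 99.3 ± 2.6 CPM with MYCN shRNA and 99.3 ± 6.8 CPM with control shRNA (SD, n = 3 each; adjusted p = 0.993), although library size scaling gave it a log2 fold change of 0.18. MAP1LC3B2, a near copy of MAP1LC3B, held 11 counts with MYCN shRNA and 10 with control shRNA over all libraries.

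The make-up of the family differed between the groups more than its total. The 5 genes together summed to 382, 378 and 394 CPM in MYCN shRNA libraries, against 367, 384 and 375 CPM in control shRNA libraries, so the groups overlapped. With library size as the only scaling the totals were 407, 404 and 417 CPM with MYCN shRNA and 348, 360.2 and 349 CPM with control shRNA, without overlap. The shares of the genes within a library do not depend on that choice. Per kilobase of transcript, GABARAP held 42.6%, 42.8% and 43.7% of the family with MYCN shRNA, against 32.5%, 31.4% and 34.8% with control shRNA. The share of GABARAPL1 was 11.8% ± 0.18 with MYCN shRNA and 17.7% ± 0.13 with control shRNA (SD, n = 3 each). The LC3 genes together were a small part of the family, with MAP1LC3B at 5.35% ± 0.52 with MYCN shRNA and 7.28% ± 0.29 with control shRNA, and MAP1LC3A at 1.48% ± 0.07 with MYCN shRNA and 2.15% ± 0.05 with control shRNA. Within a library, the log2 ratio of GABARAPL1 to GABARAPL2 averaged -0.73 ± 0.037 with MYCN shRNA and -0.21 ± 0.085 with control shRNA. That difference of -0.52 separated the groups (exact two-sided permutation p = 0.1, the smallest possible; 0.3 adjusted over the 6 pairs). By contrast, MAP1LC3B relative to MAP1LC3A differed by 0.07 with overlapping groups (exact permutation p = 0.3; adjusted p = 0.45).

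**Figure D2:**
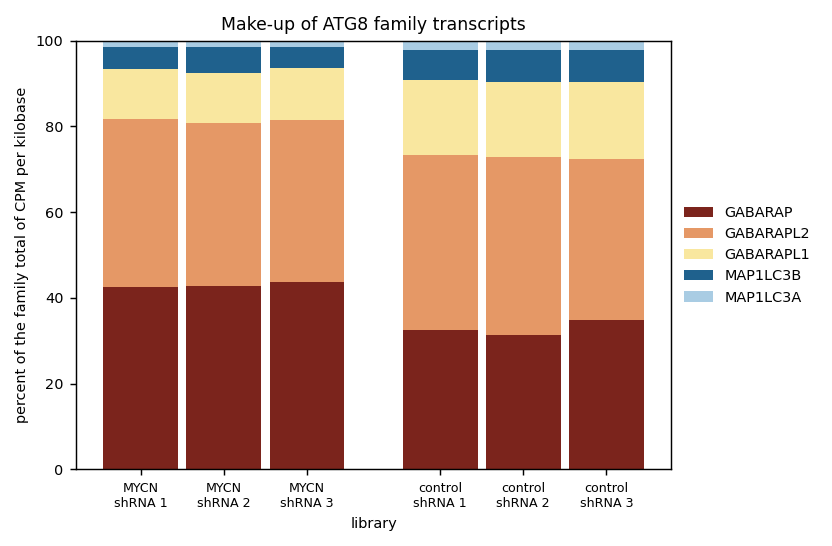
Share of each gene in the ATG8 family total of CPM per kilobase of transcript, in percent, for the 3 MYCN shRNA and 3 control shRNA libraries. GABARAP takes 42.6% to 43.7% in the MYCN shRNA libraries and 31.4% to 34.8% in the control shRNA libraries, while the GABARAPL1, MAP1LC3B and MAP1LC3A segments are thinner with MYCN shRNA.

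Of the receptors that tie cargo to ATG8 proteins, 3 rose, 1 fell and 1 did not pass. TAX1BP1 (chromosome 7, 27739331 to 27844564), a receptor for ubiquitinated cargo and aggregates, measured 106, 106 and 109 CPM in MYCN shRNA libraries, against 172, 179 and 186 CPM in control shRNA libraries. It fell by 0.74 ± 0.042 (adjusted p = 8.05e-20), the smallest p among the 46 tested genes. OPTN, a receptor for damaged mitochondria and bacteria, measured 30.8, 33.6 and 32.6 CPM with MYCN shRNA and 22.2, 22.2 and 21.2 CPM with control shRNA. It rose by 0.56 ± 0.067 (adjusted p = 6.33e-10), and 147 of its exon bases are shared with CCDC3 on the opposite strand (log2 fold change 1.52). SQSTM1, which encodes p62, a receptor that autophagy itself degrades, measured 108, 99.8 and 98.7 CPM with MYCN shRNA and 87.5, 85.0 and 78.9 CPM with control shRNA. Its rise of 0.28 ± 0.048 (adjusted p = 1.21e-06) is of RNA and says nothing of the protein. MRNIP overlaps 1582 exon bases of SQSTM1 on the opposite strand and stood at 5.99 CPM with MYCN shRNA and 7.79 CPM with control shRNA. CALCOCO2, which encodes NDP52, rose by 0.26 ± 0.048 (adjusted p = 9.69e-06), at 94.0 ± 4.9 CPM with MYCN shRNA and 78.7 ± 3.5 CPM with control shRNA (SD, n = 3 each). NBR1, a p62-like receptor, did not pass (log2 fold change -0.09 ± 0.053, adjusted p = 0.137). Per kilobase, TAX1BP1 held 31.5%, 31.1% and 32.3% of the receptor transcripts with MYCN shRNA, against 46.9%, 47.3% and 49.5% with control shRNA. SQSTM1 held 29.2% ± 1.5 with MYCN shRNA and 21.7% ± 1.4 with control shRNA (SD, n = 3 each). By the length of 1 transcript per gene, TAX1BP1 was thus the most abundant receptor in every library, by a wide margin with control shRNA. The margin was narrow with MYCN shRNA, where SQSTM1 held 30.9% in replicate 1. In that library SQSTM1 (108 CPM) was above TAX1BP1 (106 CPM) when length was not taken into account.

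**Figure D3:**
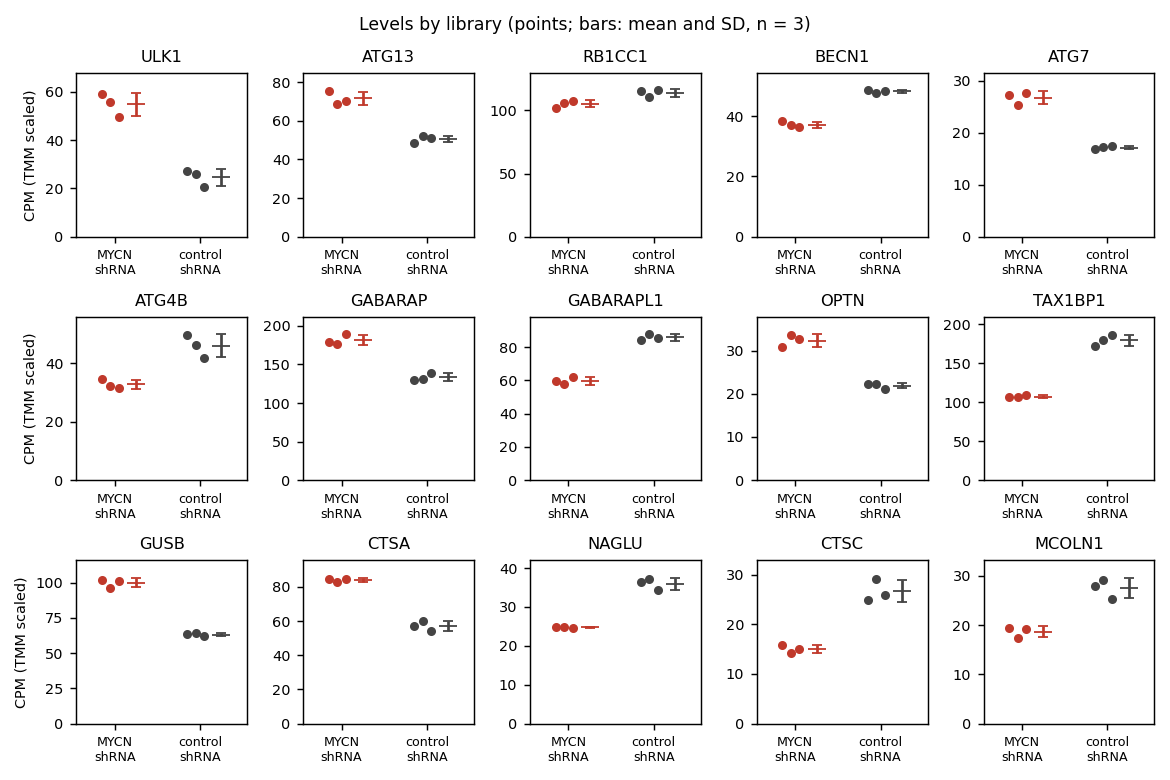
Levels of 15 autophagy and lysosome genes in CPM (TMM scaled), each point a library, with MYCN shRNA on the left and control shRNA on the right of each panel, and bars for the mean and SD of 3 libraries. Axes start at 0 and differ between panels; ULK1, at 49.5 to 58.9 against 20.6 to 27.0 CPM, has the widest relative gap, and RB1CC1 the narrowest.

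Of the transcription factors known for controlling lysosomal genes, TFE3 rose and TFEB did not pass. TFE3 measured 25.1, 27.0 and 26.3 CPM in MYCN shRNA libraries, against 22.6, 19.1 and 18.9 CPM in control shRNA libraries. It rose by 0.37 ± 0.075 (adjusted p = 2.46e-05) without overlap. TFEB had few counts, at 6.19, 4.64 and 5.55 CPM with MYCN shRNA and 4.73, 4.47 and 4.71 CPM with control shRNA. The groups overlapped and TFEB did not pass (log2 fold change 0.24 ± 0.142, adjusted p = 0.128), while without MYCN shRNA replicate 2 it did (0.34, adjusted p = 0.0457). These factors are regulated mainly by phosphorylation and location, which RNA levels do not show.

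On the lysosomal membrane, the structural proteins did not pass with TMM scaling and the calcium channel fell. LAMP1, the abundant membrane glycoprotein used as a lysosome marker, measured 162, 154 and 156 CPM in MYCN shRNA libraries, against 149.8, 153 and 146 CPM in control shRNA libraries. It did not pass (log2 fold change 0.08 ± 0.040, adjusted p = 0.0859), but it passed as higher with upper quartile scaling (0.11, adjusted p = 0.00964), cyclic loess (0.16, adjusted p = 0.00115) and library size scaling (0.26, adjusted p = 4.46e-07). LAMP2, which is needed for fusion with autophagosomes and for chaperone-mediated autophagy, measured 76.6, 81.4 and 78.2 CPM with MYCN shRNA and 71.0, 71.4 and 82.0 CPM with control shRNA. Control shRNA replicate 3 lay above all other libraries, and LAMP2 did not pass (0.07 ± 0.052, adjusted p = 0.187), but it passed without that replicate (0.14, adjusted p = 0.00869) and under the same 3 scalings as LAMP1. The ratio of LAMP2 to LAMP1 overlapped between the groups (difference 0.00, exact permutation p = 1.0). MCOLN1, the TRPML1 calcium channel whose opening activates TFEB, measured 19.4, 17.4 and 19.3 CPM with MYCN shRNA and 28.0, 29.3 and 25.2 CPM with control shRNA. It fell by 0.56 ± 0.074 (adjusted p = 9.17e-09).

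Precursors of lysosomal activators rose. PSAP, cleaved into the saposins that present lipids to hydrolases, was the most abundant of the 49 genes per kilobase of transcript, with means of 147 CPM per kilobase with MYCN shRNA and 132 with control shRNA. It measured 421, 413 and 429 CPM in MYCN shRNA libraries, against 379, 377 and 378 CPM in control shRNA libraries. Its replicates were tight, and it rose by 0.16 ± 0.038 (adjusted p = 0.000304). GRN, which encodes progranulin, measured 91.5, 84.9 and 79.9 CPM with MYCN shRNA and 66.8, 67.2 and 54.4 CPM with control shRNA, and rose by 0.44 ± 0.068 (adjusted p = 1.1e-05).

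The sequence CACGTG, the E-box, is known to be bound by MYC and by MiT family proteins, and TCACGTGA is the core of the element known from lysosomal promoters, so the promoters of these genes were read for both. RefSeq promoters (GRCh38.p14, 250 bases before to 50 after the start) matched 41 of the 49 genes by symbol. Both motifs are their own reverse complement, so a match holds on both strands, and every TCACGTGA also counts as a CACGTG. The E-box occurred in 9 of the 41 (22.0%), against 7.44% of all 27305 RefSeq promoters and 10.3% of those of tested genes. TCACGTGA occurred in 5 (12.2%), against 1.04% of all RefSeq promoters and 1.97% of those of tested genes. Lysosomal genes held most of these, with CACGTG in 7 of 13 promoters, while it occurred in 2 of 21 promoters of autophagosome genes and in 0 of 5 of receptor genes. As the element is known from lysosomal promoters, a higher share among genes chosen by name could follow from that choice. These shares are therefore a description and no independent result. The following windows of 60 bases before the start site show CTSA, MCOLN1, GAA and LAMP1, which carry the longer core and differ in their calls, on the strand of the gene and 5′ to 3′, with motifs in capitals.
CTSA: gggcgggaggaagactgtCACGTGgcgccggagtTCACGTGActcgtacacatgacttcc
MCOLN1: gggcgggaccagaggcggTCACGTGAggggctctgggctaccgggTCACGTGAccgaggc
GAA: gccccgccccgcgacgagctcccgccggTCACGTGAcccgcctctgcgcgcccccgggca
LAMP1: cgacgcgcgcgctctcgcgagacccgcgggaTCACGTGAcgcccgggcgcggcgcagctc
The CTSA window is chr20:45891275-45891334 on the plus strand, and CTSA rose. The MCOLN1 window is chr19:7522564-7522623 on the plus strand, with a pair of full cores, and MCOLN1 fell. The GAA window is chr17:80101521-80101580 on the plus strand, and GAA fell. The LAMP1 window is chr13:113297179-113297238 on the plus strand, and LAMP1 did not pass. The promoters of GAA and LAMP1 also hold 2 full cores each, but in each a core lies partly or wholly outside the window. Of the 9 genes with CACGTG, 3 rose (CTSA, NEU1 and ATG14), 2 fell (MCOLN1 and GAA), 3 did not pass (LAMP1, CTSD and ATG3) and CTSF was not tested. Over all 1079 tested genes with CACGTG in the promoter, the median log2 fold change was -0.11, with 28.2% higher and 46.2% lower. Over the 206 with TCACGTGA these values were -0.02, 32.5% and 39.3%, and over the 9404 without CACGTG they were 0.01, 38.8% and 37.0%. A match is a description of the letters and was not tested as a site.

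**Figure D4:**
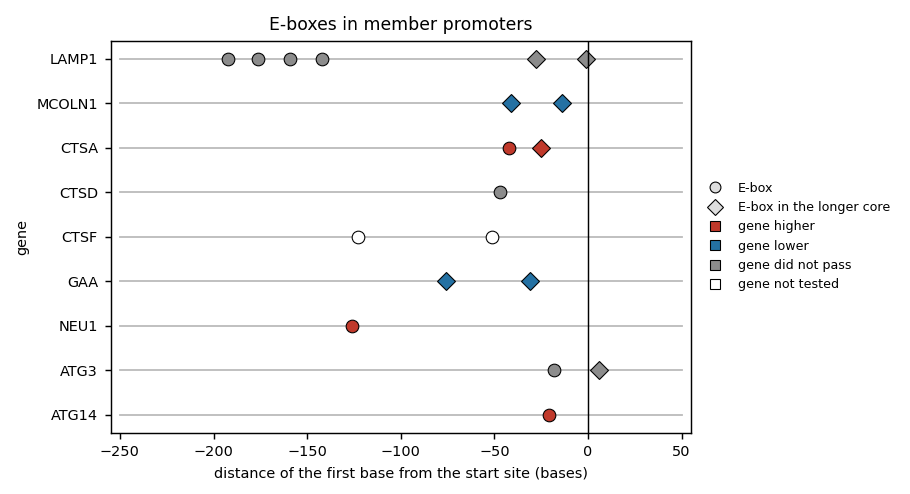
Positions of CACGTG (circles) and of CACGTG within TCACGTGA (diamonds) in 9 promoters, as the distance in bases of the first base of CACGTG from the start site, from 250 before to 50 after it; red marks genes higher with MYCN shRNA, blue lower, grey those that did not pass and white the gene not tested. LAMP1 holds 6 motifs, and genes with the longer core include CTSA (higher), MCOLN1 and GAA (lower), and LAMP1 and ATG3 (did not pass).

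Among peptidases of the lysosome, CTSA rose most and CTSC fell most. CTSA (chromosome 20, 45890144 to 45898820), a carboxypeptidase that also protects neuraminidase and beta-galactosidase, measured 84.9, 82.8 and 84.7 CPM in MYCN shRNA libraries, against 57.0, 60.3 and 54.4 CPM in control shRNA libraries. It rose by 0.56 ± 0.050 (adjusted p = 2.59e-13). On the opposite strand, NEURL2 shares 1038 exon bases with it at 1.33 CPM with MYCN shRNA and 1.74 CPM with control shRNA, and PLTP (log2 fold change -0.82) shares 200. CTSC (chromosome 11, 88293592 to 88337787), the dipeptidyl peptidase that activates granule serine proteases, measured 15.9, 14.2 and 15.0 CPM with MYCN shRNA and 25.0, 29.1 and 25.9 CPM with control shRNA. It fell by 0.83 ± 0.078 (adjusted p = 1.33e-12), the largest decrease among the 46. CTSB, a broad cysteine protease, measured 135, 134 and 135 CPM with MYCN shRNA and 113, 120.3 and 111 CPM with control shRNA. It rose by 0.23 ± 0.042 (adjusted p = 7.09e-06). The other major proteases did not pass. CTSD, the aspartic protease, overlapped between groups at 22.2 to 26.3 CPM with MYCN shRNA and 23.4 to 28.4 CPM with control shRNA (log2 fold change -0.11 ± 0.075, adjusted p = 0.177), though it passed without control shRNA replicate 3 (-0.18). CTSL, a cysteine protease, had a log2 fold change of 0.15 ± 0.072 and an adjusted p of 0.0569, close to the threshold. It passed as higher without MYCN shRNA replicate 1 (0.19) or control shRNA replicate 3 (0.17). CTSL also passed with upper quartile scaling (adjusted p = 0.0185), library size scaling (0.000101), a filter of at least 1 CPM in 3 libraries (0.0493) and replicate number in the model (0.0446).

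All 6 glycosidases passed, and they split 3 to 3. GUSB (chromosome 7, 65960684 to 65982314), which encodes beta-glucuronidase, measured 102, 96.1 and 101 CPM in MYCN shRNA libraries, against 63.3, 64.1 and 62.0 CPM in control shRNA libraries. It rose by 0.66 ± 0.047 (adjusted p = 2.43e-16), the largest increase among the lysosomal enzymes. NEU1, the neuraminidase that needs CTSA for its stability, measured 37.0, 35.4 and 32.9 CPM with MYCN shRNA and 26.8, 25.0 and 23.2 CPM with control shRNA. It rose by 0.49 ± 0.067 (adjusted p = 1.8e-08), and CTSA, its protective partner, also rose. HEXA, the alpha subunit of beta-hexosaminidase, rose by 0.18 ± 0.052 (adjusted p = 0.00163), at 78.0 ± 1.6 CPM with MYCN shRNA and 68.7 ± 5.7 CPM with control shRNA (SD, n = 3 each). GLA, the alpha-galactosidase lacking in Fabry disease, measured 17.4, 17.4 and 16.8 CPM with MYCN shRNA and 25.4, 26.4 and 25.8 CPM with control shRNA. It fell by 0.59 ± 0.072 (adjusted p = 1.46e-09). NAGLU, an enzyme of heparan sulfate breakdown, measured 24.8, 24.9 and 24.5 CPM with MYCN shRNA and 36.4, 37.3 and 34.2 CPM with control shRNA. It fell by 0.54 ± 0.064 (adjusted p = 4.93e-10), and for GLA and NAGLU alike the gap was many times the spread within a group. GAA, which degrades glycogen, fell by 0.19 ± 0.060 (adjusted p = 0.00508) in groups that overlapped. Its call was lost without control shRNA replicate 2 (log2 fold change -0.13, adjusted p = 0.0661) and with library size scaling (-0.01, adjusted p = 0.921).

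Autophagosome genes and lysosomal enzymes gave similar counts of calls. Of 24 autophagosome genes, 23 were tested, and 10 rose, 9 fell and 4 did not pass. Their log2 fold changes ran from -0.53 (WIPI1) to 1.16 (ULK1) around a median of 0.04. Of 13 lysosomal enzymes, 11 were tested, and 5 rose, 4 fell and 2 did not pass, from -0.83 (CTSC) to 0.66 (GUSB) around a median of 0.15. Both lists lie near the 38.0% higher and 37.9% lower of all tested genes, and no test of the lists against each other was made. The median absolute log2 fold change was 0.49 for the enzymes and 0.28 for the autophagosome genes, a difference that was not tested. Summed over the 24 genes, autophagosome transcripts reached 1280, 1246 and 1275 CPM in MYCN shRNA libraries, against 1206, 1214 and 1209 CPM in control shRNA libraries. Summed over the 13 enzymes, the levels were 593, 583 and 587 CPM with MYCN shRNA and 521, 551 and 496 CPM with control shRNA. Receptor transcripts summed to 384, 391 and 386 CPM with MYCN shRNA and 410, 425 and 421 CPM with control shRNA, and TAX1BP1 was the receptor gene that fell. Within each library, the sum of the enzymes over that of the autophagosome genes was 0.463, 0.467 and 0.461 with MYCN shRNA and 0.432, 0.454 and 0.410 with control shRNA. The ratio was higher in every MYCN shRNA library than in any control shRNA library, but control shRNA replicate 2 lay close to the MYCN shRNA values. With library size scaling, the ratio of the group means was 1.19 for the autophagosome sum (1.05 with TMM), 1.28 for the enzyme sum (1.12 with TMM) and 1.05 for the receptor sum (0.925 with TMM).

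Wider lists of the same pathways, which hold 149 tested genes other than these 49, were read for context. Of these, 84 rose (56.4%) and 32 fell (21.5%), where 38.0% and 37.9% of all tested genes did. With library size scaling 109 rose and 21 fell, but all tested genes then shifted too, with 6597 of 12819 higher and 3348 lower. Among other lysosomal hydrolases, 25 of 32 tested genes rose and 4 fell, and the median of the list was 0.43 on the log2 scale. LIPA, the acid lipase, rose by 0.95 ± 0.062 (adjusted p = 1.12e-17), and ASAH1, the acid ceramidase, fell by 0.64 ± 0.052 (adjusted p = 1.34e-14). Of 16 other core autophagy genes 9 rose and 1 fell. There ATG10, the E2-like enzyme for ATG12, rose by 1.12 ± 0.104 (adjusted p = 8.38e-13) and PIK3R4 was the gene that fell. Of 18 subunits of the V-ATPase, the pump that acidifies the lysosome, 8 rose and 4 fell, with ATP6V1D at 0.63 and ATP6V1B2 at -0.65. Of 23 genes for nutrient sensing at the lysosome 12 rose and 7 fell. FNIP2, a partner of folliculin, rose by 1.20 ± 0.046, and LAMTOR5, a subunit of the Ragulator scaffold of mTORC1, fell by 1.20 ± 0.058 (adjusted p = 1.98e-25 and 5.14e-22). Of 19 other lysosomal membrane protein genes 8 rose and 6 fell, among them HGSNAT (1.37), which acetylates heparan sulfate, and LAPTM4B (-0.90).

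Genes of the later steps and of control also moved in both directions, and the shares below stand beside 38.0% higher and 37.9% lower of all tested genes. Of 13 fusion genes 7 rose (53.8%) and 3 fell (23.1%). SNAP29, the SNARE of autophagosome fusion, had a log2 fold change of 0.58 and the late endosomal GTPase gene RAB7A one of -0.43. Of 14 other selective autophagy genes 10 rose (71.4%) and 4 fell (28.6%), with the mitophagy receptor genes BNIP3L at 0.45 and FKBP8 at -0.61. Of 9 lysosomal sorting genes 3 rose (33.3%) and 1 fell (11.1%), with the sorting receptor gene SORT1 at 1.17 and the mannose 6-phosphate receptor gene M6PR at -0.10. The groups overlapped for M6PR, whose sign turned with library size scaling (0.08), and its call was lost with DESeq2 (adjusted p = 0.0614), upper quartile scaling (adjusted p = 0.19), cyclic loess (adjusted p = 0.584) and without any 1 of 4 libraries (MYCN shRNA replicates 1 and 2, control shRNA replicates 1 and 3). Among other transcriptional regulators, FOXO1, an activator of autophagy genes, rose by 0.81 ± 0.051 (adjusted p = 3.2e-18) and its relative FOXO3 fell by 0.33 ± 0.046 (adjusted p = 3.57e-08). ZKSCAN3, described as a repressor of autophagy genes, rose by 0.44 (adjusted p = 0.00079), and MITF, of the MiT family, did not pass (0.69, adjusted p = 0.0548).

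**Figure D5:**
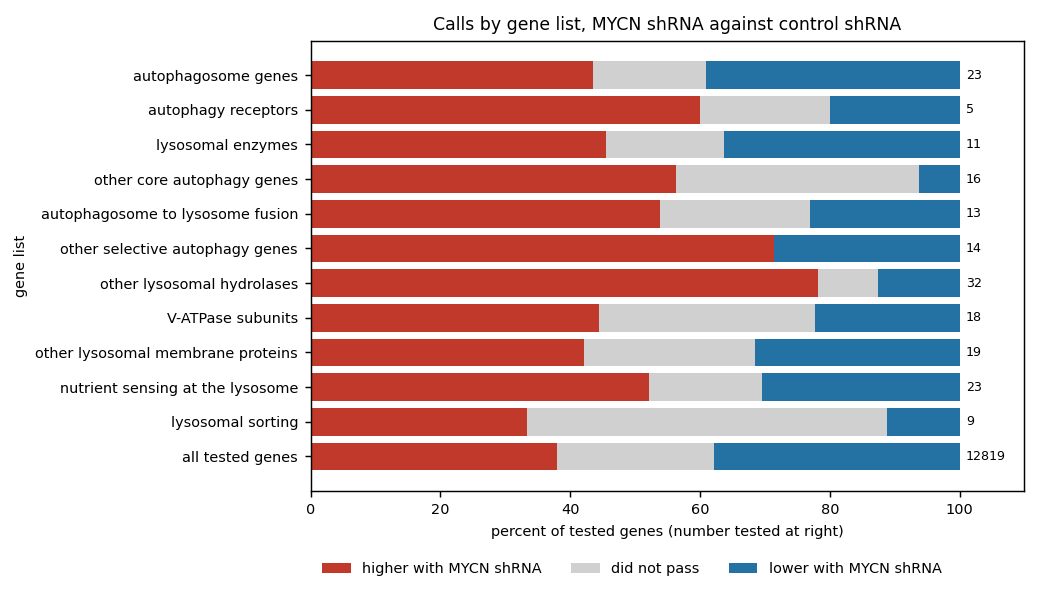
Share of tested genes that were higher, did not pass or were lower with MYCN shRNA (percent, number tested at right), for autophagosome genes, receptors, lysosomal enzymes, 8 wider pathway lists and all tested genes. Of autophagosome genes 43.5% and of lysosomal enzymes 45.5% were higher, beside 38.0% of all tested genes, while 25 of 32 other lysosomal hydrolases were higher.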

How the data were processed

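The authors deposited a table of estimated counts by gene symbol with a column for each library, not scaled between libraries. Per the labels' protocols, RNA was extracted with TRIzol and poly(A)-selected. Per the submitters' processing notes the genome was GRCh38. Aligner, counting program, annotation and strand setting were not given in sources used here. Of 17035 rows, 22 held no values. Library titles gave the groups and replicate numbers. Replicates differed by more than sampling noise (chi-square per gene of 1.73 to 4.23). P-values weigh the difference between the groups against the spread between these libraries.

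Estimated counts were rounded, and genes passing filterByExpr (minimum of 10 counts, 12819 genes) were tested in R 4.3.3 by edgeR 4.0.16 (quasi-likelihood), with TMM scaling (factors of 1.059 to 1.070 for MYCN shRNA and 0.930 to 0.948 for control shRNA) and Benjamini-Hochberg adjustment at 0.05 over all tested genes. The steps were checked on simulated data. Ratios of paralogues used a pseudocount of 0.5 CPM and an exact permutation test over libraries. Positions and transcript lengths came from GENCODE 29, promoters from RefSeq. Figures used matplotlib 3.10.9.

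The genes, lists and tests were chosen with earlier results of these data known. Values per library were given for the 2 genes of each list with the smallest p in each direction, and for all genes of lists with 3 or fewer. Of wider lists, the gene with the smallest p in each direction was named, and FOXO3, ZKSCAN3 and MITF were named outside that rule. A gene of the wider lists is not reported here. Alternatives were DESeq2 1.42.0, limma 3.58.1 (voom, with and without cyclic loess), RLE, upper quartile and library size scaling, other filters, a 2-fold minimum, a replicate block and each library left out.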

Additional observations from a re-analysis of the deposited data

How the results depend on the processing

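Across 15 alternatives, the calls of 30 of the 46 tested genes did not change (18 higher, 11 lower, 1 not passed). The scaling mattered most. With library size only, the medians were 0.22 for autophagosome genes and 0.33 for lysosomal enzymes, and summed levels stood at ratios of 1.188 (autophagosome genes), 1.275 (enzymes) and 1.049 (receptors), beside 1.048, 1.124 and 0.925 with TMM. Under it 6597 genes were higher and 3348 lower, and the signs of GABARAPL2 (0.18), RB1CC1 (0.068), ATG12 (0.052) and M6PR (0.083) turned, as did those of CTSD (0.071), NBR1 (0.096) and ATG5 (0.063), which passed under neither scaling. Cyclic loess turned that of MYCN (0.098), which then passed as higher (limma-voom, adjusted p = 0.0247). A 2-fold minimum, which can only lower these counts, left 1857 genes (1184 higher, 673 lower) and 1 of the 46 higher and 0 lower. It left 1 autophagosome gene higher and 0 lower, and 0 enzymes in either direction. Leaving out each library in turn gave 9343 to 9687 genes called. Deviations from the group means correlated weakly between same-numbered libraries (0.12, 0.104 and 0.026). Whether replicate numbers pair the libraries was not tested. With a replicate block, 22 of the 46 were higher and 16 lower, autophagosome genes 10 and 10, enzymes 6 and 4, and all genes 4967 and 4939. The cause of these shifts was not tested. Depth limits ULK2, CTSF and CTSZ, which could not be tested.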

Other observations

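The 7-base sequences AGCACAA and GTGGATC, singled out earlier from these same fold changes, lie in the 3′ untranslated region of 5 of the 46 tested genes (LAMP2, OPTN, MAP1LC3A, ATG14 and UVRAG; 10.9%), beside 18.3% of 12720 tested genes with a transcript. MAP1LC3C, an ATG8 gene outside the 49, held 48 counts over the MYCN shRNA libraries and 2 over the control shRNA libraries, and it was named after its values were seen.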
